A study of Mus musculus with 49 samples.

Results

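The comparison described here is p53 activation for 4 h in mouse embryonic stem cells (mES cells) that still hold Trim24. It takes 3 libraries of cells given 1 µM doxorubicin for 4 h and 3 libraries of the same line at 0 h, which received no drug, so it rests on 6 of the 49 RNA-seq libraries of the series. All 20489 genes of the table were considered, and the 15772 with enough signal were tested. In both groups the endogenous Trim24 gene carries a degron tag, FKBP12(F36V) with a V5 epitope at the C terminus, in a 129S6/SvEvTac background. No dTAG13, the compound that triggers degradation, was given, so the tagged protein stays in the cells. The tagged line was derived from picked clones, and the labels do not say how many clones the libraries came from. The libraries are called biological replicates in the labels, and p-values measure the spread between them.

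p53 is a transcription factor that is kept at low activity by the ubiquitin ligase Mdm2 and is released when DNA is damaged. Doxorubicin poisons topoisomerase II and breaks DNA. Active p53 then switches on genes that stop the cell cycle, trigger apoptosis, repair DNA and limit p53 itself, among them Mdm2. In mES cells, p53 activity is also known to go with lower expression of pluripotency factors. Doxorubicin acts on cells in other ways too, and no cells lacking p53 were compared here, so an effect of p53 and another effect of the drug cannot be told apart.

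The 0 h libraries held 18426252 to 21852262 reads over genes and the 4 h libraries 17704232 to 21125900. Levels are given as CPM, reads scaled to library size, computed from these reads with the authors' scaling. Log2 fold changes are differences of the deposited log2 CPM, which hold a prior count of 8 and so understate the change of genes with few reads. A change given as a number of fold is instead the ratio of the mean CPM of the groups, with no prior count. Such ratios are larger for genes with few reads and uncertain there. A gene rose or fell when limma gave an adjusted p under 0.01 (Benjamini-Hochberg over all genes tested) and the log2 difference was 0.75 or more in size. By this rule 12.9% of tested genes rose (2039) and 5.80% fell (915), 18.7% in all. The counts of each gene list below are to be read beside these shares. Rises made up 69.0% of the changed genes, and 53.5% after quantile normalization, which called 1570 rises and 1366 falls. Of the rises 44.0% were under 1 CPM at 0 h, and of the falls 3.83%. Genes that low can hardly fall, so the share of rises is not a measure of balance. The groups were fully apart, every library of one above every library of the other, for 63.8% of the tested genes, so such a separation is common here. CPM is relative to all reads over genes of a library, so a change in total RNA per cell cannot be seen.

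The gene targeted by the tag and the gene being activated were both measured. Trp53 mRNA was at 278, 309 and 289 CPM at 0 h and at 261, 267 and 249 CPM at 4 h. The difference of −0.17 on the log2 scale was under the fold threshold (SE 0.04, limma adjusted p = 0.00248). Trim24 mRNA, in contrast, was at 213, 207 and 212 CPM at 0 h and at 119, 123 and 119 CPM at 4 h. It fell by 0.80 on the log2 scale (SE 0.04, limma adjusted p = 3.3e-12), although no degrader was present. Under quantile normalization the difference was −0.67, inside the fold threshold. The level of Trim24 protein was not measured in these libraries.

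Markers of the labelled cell type were present in every library. The 8 pluripotency markers summed to 4749 to 4830.2 CPM at 0 h and to 2807 to 2918 CPM at 4 h, and 4 of the 8 fell, namely Sox2, Nanog, Sall4 and Zfp42. Markers of fibroblasts, the cell type of feeder layers, were low in both groups, at 28.7 to 33.6 and 30.2 to 36.9 CPM over 14 genes, with Lum at 0 reads, Col3a1, Dcn, Postn and Fap too low to test and Col1a1, Col1a2 and Snai2 rising. Primitive endoderm markers, 9 genes, summed to 69.7 to 74.0 CPM at 0 h and 46.9 to 50.7 CPM at 4 h. The 6 trophoblast markers went from 3.68 to 4.32 CPM up to 11.6 to 13.3 CPM, with Krt7 the only one that rose and Tpbpa at 0 reads. The part of such cells in the results was not tested.

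The promoters of a few rising genes are printed first, with their matches to the p53 response element. Binding of p53 to these stretches was not measured in these libraries. The p53 response element consists of 2 decamers, and p53 binds it as a tetramer. Each decamer was taken as RRRCWWGYYY, where R is A or G, Y is C or T and W is A or T. A mismatch could fall at any position, the core CWWG included. RefSeq promoter windows (GRCm38.p6, 250 bases before to 50 after a start site) were searched for it, with no spacer and at most 3 mismatches over both decamers. The consensus reads the same on both strands. Capitals mark the match, and the strand is that of the gene. Where a gene had several windows, the best match is given. Cdkn1a encodes the cyclin-dependent kinase inhibitor p21 and has 2 windows. The one at chr17:29090729-29091028 (plus strand) holds a match with 1 mismatch, which starts 51 bases before the start site of that window. Ccng1 encodes cyclin G1, a feedback regulator of p53, and its window at chr11:40755237-40755536 (minus strand) holds one with 1 mismatch. These 2 genes were chosen after the matches were seen. Trp73 encodes the p53 relative p73, and its window at chr4:154097124-154097423 (minus strand) holds one with 2 mismatches, 66 bases before the start site. Gpr132, which encodes a G protein-coupled receptor, holds one with 2 mismatches at chr12:112860867-112861166 (minus strand).
Cdkn1a: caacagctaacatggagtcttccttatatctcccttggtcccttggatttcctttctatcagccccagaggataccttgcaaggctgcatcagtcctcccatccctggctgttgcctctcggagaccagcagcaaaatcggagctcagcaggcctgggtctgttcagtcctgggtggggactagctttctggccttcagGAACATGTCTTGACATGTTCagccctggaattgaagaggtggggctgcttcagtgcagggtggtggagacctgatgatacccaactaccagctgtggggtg
Ccng1: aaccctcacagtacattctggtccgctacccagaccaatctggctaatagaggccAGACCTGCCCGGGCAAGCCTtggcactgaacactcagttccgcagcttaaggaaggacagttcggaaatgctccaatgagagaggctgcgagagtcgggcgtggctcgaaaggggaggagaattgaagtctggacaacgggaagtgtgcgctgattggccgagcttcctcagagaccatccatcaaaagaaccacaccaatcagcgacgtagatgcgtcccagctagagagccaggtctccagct
Trp73: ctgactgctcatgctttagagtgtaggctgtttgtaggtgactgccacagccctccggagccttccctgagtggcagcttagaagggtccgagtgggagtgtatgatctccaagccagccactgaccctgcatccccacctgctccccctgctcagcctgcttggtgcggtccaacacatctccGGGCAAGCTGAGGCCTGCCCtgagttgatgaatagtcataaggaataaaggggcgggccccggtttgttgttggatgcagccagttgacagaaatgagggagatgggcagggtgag
Gpr132: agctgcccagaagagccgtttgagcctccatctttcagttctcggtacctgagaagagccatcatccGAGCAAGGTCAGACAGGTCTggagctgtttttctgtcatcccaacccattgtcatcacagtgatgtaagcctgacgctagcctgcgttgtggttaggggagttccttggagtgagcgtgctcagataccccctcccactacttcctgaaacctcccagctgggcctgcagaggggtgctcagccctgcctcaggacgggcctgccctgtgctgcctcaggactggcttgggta

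Sec14l5, Wnt3, Mpp4 and Mab21l3 were the other genes with the largest increases among those whose window held a match. Each of their matches had 3 mismatches, and only the match is shown. The windows lie at chr16:5146859-5147158 (plus strand), chr11:103773925-103774224 (plus), chr1:59163340-59163639 (minus) and chr3:101836174-101836473 (minus), and the match of Mab21l3 lies after the start site. Sptbn4, which encodes a spectrin, was added after the matches were seen, because its match at chr7:27396149-27396448 (minus strand) has 0 mismatches.
Sec14l5: AGGCCAGTTCAGGCTCTCCC
Wnt3: AAGTTTGCCGGGAGATGCCC
Mpp4: AAGCTTCTTAGCACAAGCTT
Mab21l3: AGCCTTGCTCAGACATGAAC
Sptbn4: GAGCTAGCCTAGGCTAGTCT

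Such loose matches are frequent. Of all tested genes with a window, 6.68% held a match, against 8.19% of the rising genes (130 of 1587) and 6.52% of the falling ones (45 of 690). With at most 2 mismatches, the shares were 0.900%, 1.76% (28 genes) and 0.725% (5 genes). Windows were found for 77.8% of the rising and 75.4% of the falling genes, under 80%, so a comparison of these shares over the sets is void. Mdm2, Plk2, Fas and Btg2 are known p53 targets without a match in the window, which says only that these letters are not in this stretch.

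Regulators that act back on p53 rose in part. Of 8 such genes, 3 rose and 1 fell, Trim24. Mdm2, at chr10:117688875-117710758 on the minus strand, was at 186, 177 and 180.3 CPM at 0 h and at 929.6, 980.1 and 989 CPM at 4 h, a log2 fold change of 2.41 (SE 0.04, limma adjusted p = 2.6e-19). All 3 activated libraries lay far above the uninduced ones, with little spread within either group. Ccng1 rose 3.59-fold, from 482 ± 29.0 to 1733 ± 60.4 CPM (SD, n = 3). Ppm1d, which encodes the phosphatase Wip1 that shuts off damage signalling, rose 2.20-fold, from 56.9 ± 3.46 to 125 ± 2.93 CPM (SD, n = 3). Mdm4, the partner of Mdm2, had a log2 difference of 0.13 (382 ± 10 and 417 ± 22.2 CPM) and did not pass. Within the p53 family, Trp73 rose 14.2-fold, from 4.54, 4.42 and 4.85 CPM to 68.1, 61.7 and 66.3 CPM. Trp63 passed the test on 2 reads at 0 h and 20 at 4 h, a ratio of 10.3 (95% exact interval 2.51 to 91.3, counting error only), and did not pass under quantile normalization (log2 difference 0.55). The sensors and kinases Atm, Atr, Chek1 and Chek2 had log2 differences between −0.09 and 0.08 and did not pass.

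**Figure D1:**
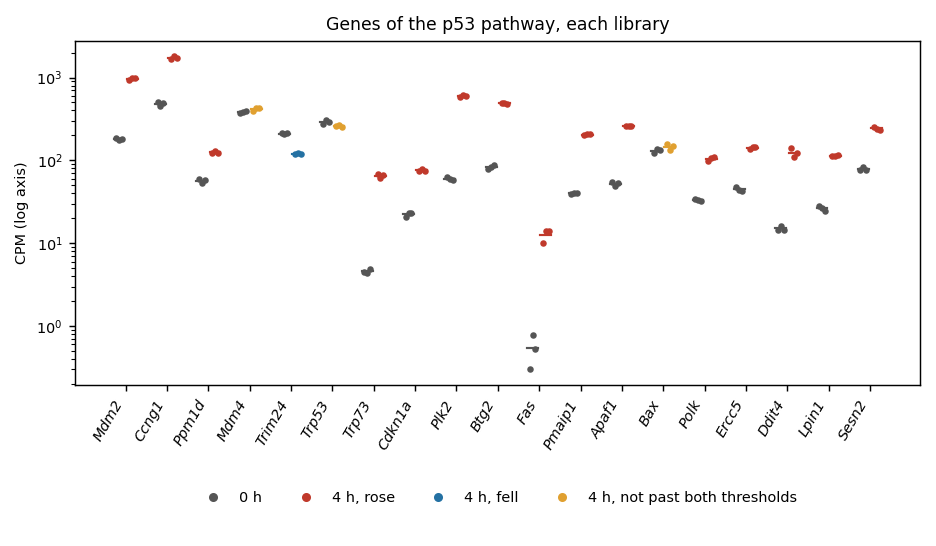
Level of 19 genes of the p53 pathway in each library, in CPM on a log axis. Each point is a library and each bar the mean of 3; grey points are 0 h and coloured points 4 h. Mdm2, Trp73 and Fas sit well above their 0 h libraries, Bax and Mdm4 overlap with theirs, and Trim24 is the gene that fell.

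Known p53 targets that arrest the cell cycle rose in 5 of 10 measured cases, with a list median of 1.22 against −0.006 over all tested genes, and none fell. Plk2, a polo-like kinase, was at 63.6, 58.8 and 58.5 CPM at 0 h and at 580.4, 618 and 593 CPM at 4 h, a 9.90-fold rise. The antiproliferative genes Btg2 and Btg1 rose 5.90-fold and 3.64-fold. Cdkn1a rose 3.38-fold, from 20.9, 23.4 and 23.2 CPM to 75, 77.6 and 75.1 CPM. Rprm, which encodes the G2 arrest protein reprimo, rose from 1.71 ± 0.267 to 9.56 ± 0.693 CPM (SD, n = 3). Other genes of the list had smaller differences. Gtse1, a microtubule protein that dampens p53, was at 330.4 ± 14.1 and 535 ± 11.0 CPM (SD, n = 3), and its log2 difference of 0.70 was just under the fold threshold.

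Of 16 p53 targets of apoptosis, 9 rose and 1 fell, with a list median of 0.82. Fas, a death receptor, was at 0.299, 0.785 and 0.525 CPM at 0 h and at 9.95, 14.2 and 14 CPM at 4 h. Pmaip1, which encodes the BH3-only protein Noxa, rose 5.10-fold, from 39.0, 40.9 and 40.8 CPM to 204, 206 and 206 CPM. Apaf1, the scaffold of the apoptosome, rose 4.94-fold and Trp53inp1, a stress protein, 4.16-fold. Bbc3, which encodes Puma, rose from 14 ± 3.10 to 48.0 ± 8.85 CPM (SD, n = 3). Bax, the pore-forming effector, was at 122, 138 and 132 CPM and then at 156, 133 and 149 CPM, so the groups overlapped. Bid, which links death receptors to mitochondria, fell by 0.76 on the log2 scale. Among 11 other BCL2 family genes, Bik rose (log2 fold change 0.91), while Bcl2l1, which encodes the survival protein Bcl-xL, fell 1.81-fold and Hrk fell from 1.98 ± 0.425 to 0.810 ± 0.333 CPM (SD, n = 3). Quantile normalization brought Bik to 0.68, below the fold threshold.

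Of 10 p53 targets of DNA repair, 3 rose and none fell, with a median of 0.22. Ercc5, a nuclease of nucleotide excision repair, rose 3.18-fold and Polk, a translesion polymerase, 3.13-fold, from 33.6 ± 0.954 to 105 ± 5.44 CPM (SD, n = 3). Rrm2b, the p53-driven subunit of ribonucleotide reductase, rose from 9.25 ± 1.5 to 15.9 ± 0.774 CPM, and its log2 difference of 0.77 dropped to 0.72 with median centring and 0.65 with quantile normalization. Xpc, Ddb2, Polh and Pcna did not pass. None of the 14 genes of homologous recombination and the Fanconi pathway passed either, with a median of −0.30. With unadjusted p below 0.05 by limma, 2 of them were higher and 11 lower. Small differences were common, as 4533 of all 15772 tested genes were higher and 4890 lower at adjusted p under 0.05. Brca1 was at 424 ± 14.8 and 299 ± 4.79 CPM (SD, n = 3).

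Metabolic and autophagy targets of p53 rose in 10 of 20 cases and fell in none. Ddit4, an inhibitor of the growth kinase mTORC1, was at 14.6, 16.3 and 14.4 CPM at 0 h and at 141, 109 and 123 CPM at 4 h, an 8.23-fold rise. Lpin1, a phosphatidate phosphatase, rose 4.33-fold, Sesn2, a leucine sensor that also restrains mTORC1, 3.11-fold and Phlda3, an inhibitor of Akt, 2.92-fold. Sesn1, Sesn3, Gls2 and Tigar did not pass. In the redox list, 2 of 16 genes rose, beside 12.9% of all tested genes. Gclc, the catalytic subunit that limits glutathione synthesis, rose 2.04-fold. Osgin1 rose on 3 reads at 0 h and 105 at 4 h, a ratio of 36.2 (95% exact interval 12.1 to 178).

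**Figure D2:**
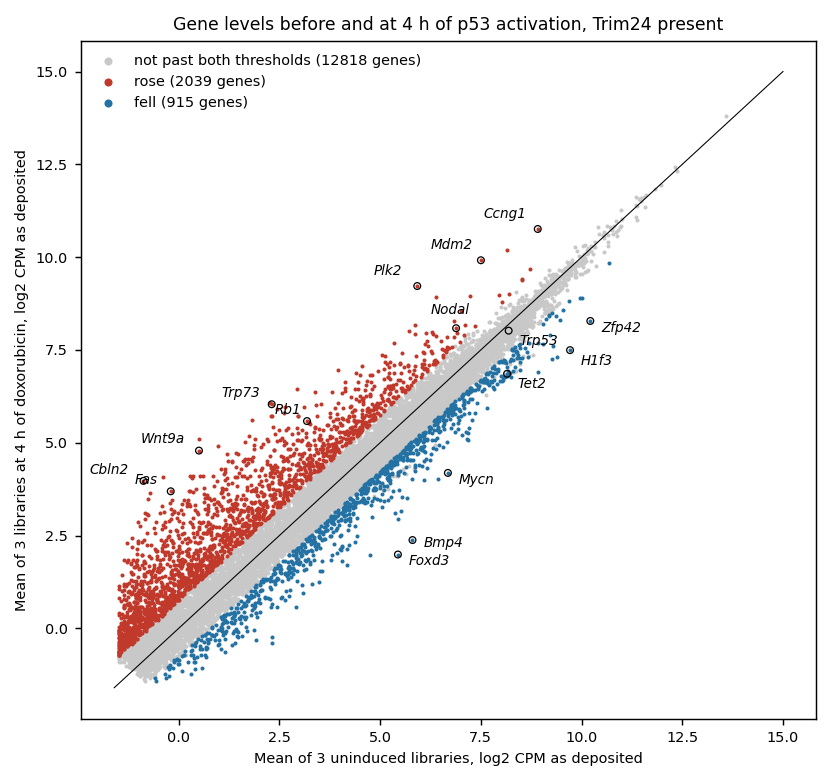
Mean deposited log2 CPM of each tested gene in the 3 libraries at 4 h (y axis) against the 3 uninduced libraries (x axis). Red points rose (2039 genes), blue points fell (915 genes), grey points did not pass both thresholds, and the line marks equal levels; Plk2, Mdm2 and Ccng1 lie above the line and Foxd3, Bmp4 and Zfp42 below it.

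Among genes at 1 CPM or more at 0 h, rises took in 20% of the 3676 genes from 1 to 10 CPM, 5.99% of the 6373 genes from 10 to 100 CPM and 0.866% of the 2770 genes at 100 CPM or more. Falls took in 7.70%, 6.42% and 6.79% of the same bins. No share is given for genes under 1 CPM, since such genes can enter the test through their level at 4 h alone, and the prior count limits how far they can fall. Genes that rose held 1.75% of scaled reads at 0 h and 4.93% at 4 h, and genes that fell went from 6.11% to 3.04%. A log2 fold change of at least 3 was reached by 94 rising genes and by 2 falling ones, Foxd3 and Bmp4. The 94 include genes under 1 CPM at 0 h, so these counts are not a measure of balance either.

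Among the 15 named genes with the largest increases, Cbln2, which encodes a synaptic organizer, was at 0.199, 0.343 and 0.0584 CPM at 0 h and at 14.9, 15.3 and 15.8 CPM at 4 h. Sbsn, a protein of the outer skin, rose 40.7-fold to 16.7 ± 0.545 CPM and Myt1, a neural zinc finger factor, 43.8-fold to 10.8 ± 0.913 CPM (SD, n = 3). Scn3b, a sodium channel subunit, went from 4.24, 4.37 and 4.90 CPM to 67.2, 68.3 and 66.8 CPM. Xirp1, of striated muscle, rose 19.6-fold. Eef1a2, the elongation factor form of muscle and neurons, rose 19.3-fold. Hyal1, a hyaluronidase, rose 15.4-fold, Tbxa2r, the thromboxane receptor, 18.1-fold, Art4, a surface protein of red blood cells, 46.6-fold and Sec14l5 18.4-fold.

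There were 142 rising genes with 3 or fewer reads over all 0 h libraries, and 37 of them had none. Such genes entered the test only through their level at 4 h, so a rise was the only call open to them. Some genes with more reads at 0 h could not enter the test on those libraries alone either. Among them were Cbln2 (4, 7 and 1 reads at 0 h), Wnt8b (2, 5 and 3) and Fosl1 (1, 1 and 6). The genes with 3 or fewer reads named here were picked for their level at 4 h, which favours large ratios. The intervals do not allow for that choice. Of those with 1 to 3 reads, Zfp648, a zinc finger gene, had the most signal at 4 h, at 4.73, 4.77 and 4.34 CPM, with 3 reads at 0 h and 257 at 4 h (ratio 88.6, 95% exact interval 30 to 433). Gpr55, a lysophospholipid receptor, had 1 read at 0 h and 132 at 4 h (ratio 137, interval 24.1 to 5435). Prss34, a mast cell protease, was at 3.28 ± 0.473 CPM at 4 h, Clrn3 at 3.08 ± 0.425, Rxfp2 at 1.96 ± 0.309 and Ccdc81 at 1.92 ± 0.302 CPM (SD, n = 3). Syndig1l, picked as the highest of those with no read at 0 h, was at least 35.4-fold higher at 4 h, taking 3 reads over the 0 h group as the floor. Genes with any read numbered 16724 to 16899 per 0 h library and 17483 to 17623 per 4 h library. Olfactory receptor genes are not known to be used by mES cells. Of 55 tested, 7 rose and 4 fell, beside 12.9% and 5.80% of all tested genes. Over 1137 such genes the sum was 74.8 to 80.6 CPM at 0 h and 91.7 to 103 CPM at 4 h. The part of such a background in the rises of low genes was not tested.

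Ligands of the Wnt family, secreted proteins that sustain stem cells and pattern the embryo, had the highest share of rising members among the 43 lists examined. Of 17 tested ligands, 11 rose and 1 fell, Wnt5b, beside 12.9% and 5.80% of all tested genes. Wnt9a was at 1.15, 1.18 and 0.876 CPM at 0 h and at 32.4, 24.0 and 26.0 CPM at 4 h. Wnt3 was at 0.150, 0.294 and 0.175 CPM at 0 h and at 8.35, 7.93 and 8.33 CPM at 4 h. Wnt8b rose 26.9-fold and Wnt10a 8.53-fold. Over all 19 ligands the sum was 26.9 to 32.1 CPM at 0 h and 83.8 to 98.3 CPM at 4 h. The ligands were thus low at 0 h, where rises were more common. Of genes from 1 to 10 CPM 20% rose, more than the 12.9% of all tested genes. Wnt3 and Wnt8b, under 1 CPM at 0 h, could not enter the test on those libraries alone. The part of low level in the share of rising ligands was not tested. Receptors and targets did not follow as a list. Of 23, 5 rose and 5 fell. The receptor genes Fzd1 and Fzd2 went opposite ways, with log2 fold changes of 2.12 and −1.08. Axin2, a feedback target that is commonly read as a sign of Wnt signalling, fell 4.02-fold, from 21.2, 22.6 and 20.1 CPM to 5.31, 5.52 and 5.08 CPM, while Rnf43, another feedback gene, rose from 0.272 ± 0.190 to 1.61 ± 0.392 CPM (SD, n = 3).

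Naive pluripotency genes were lower as a group. Of 16, 9 fell and none rose, the median was −0.83, and every member had a negative difference. Prdm14, which holds the naive state, was at 44.3, 42.1 and 49.6 CPM at 0 h and at 8.45, 9.65 and 7.88 CPM at 4 h. Zfp42 (Rex1) fell 3.83-fold, from 1225, 1179.8 and 1168 CPM to 312, 305 and 315 CPM, Klf2 3.66-fold and Gbx2 3.61-fold. Summed over the list, levels were 4271 to 4311 CPM at 0 h and 2005 to 2027 CPM at 4 h. In bulk RNA, fewer cells of a type and less RNA per cell cannot be told apart.

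Pluripotency genes of the general and the formative state also fell in part. Of 10 general factors, 2 fell and none rose. Sox2 went from 286, 293 and 247 CPM to 115, 105 and 108 CPM, and Sall4 fell 2.27-fold. Pou5f1 (Oct4) was at 976, 1042 and 944 CPM at 0 h and at 992, 886 and 939 CPM at 4 h, with overlapping groups and a log2 difference of −0.07 (limma adjusted p = 0.155). Of 12 formative and primed genes, 6 fell and none rose. Foxd3, a factor needed for exit from the naive state, was at 42.0, 52.3 and 36.5 CPM at 0 h and at 4.49, 3.33 and 3.14 CPM at 4 h. Otx2 fell 7.17-fold, Zic2 6.30-fold and Grhl2 3.05-fold. Pou3f1, a primed gene, had a log2 difference of 0.58 in the other direction and did not pass.

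Transcripts of signalling pathways that bear on these states changed in named branches, and the activity of the pathways was not measured. Genes of FGF and ERK feedback, which are commonly read as a sign of ERK activity, fell in 9 of 20 cases, and 1 rose. Spry4, a feedback inhibitor, was at 131, 156 and 141 CPM at 0 h and at 34.2, 31.4 and 35.6 CPM at 4 h, Spry2 fell 3.16-fold, and the ligand gene Fgf15 fell 5.12-fold. The receptor gene Fgfr4 rose 5.35-fold. In the BMP and Nodal list, 6 of 21 fell and 2 rose. Bmp4 was at 55.0, 57.2 and 54.3 CPM at 0 h and at 4.97, 4.60 and 4.97 CPM at 4 h, an 11.5-fold fall. Id3, a target of BMP signalling, fell 4.99-fold. Bmp7 rose 4.48-fold and Nodal 2.30-fold, from 119, 122 and 114 CPM to 286, 260.0 and 269 CPM. Ptch1, the Hedgehog receptor and itself a Hedgehog target, went from 82.6, 89.2 and 85.9 CPM to 15.8, 14.9 and 16.9 CPM. In another set of tagged cells titled untreated, Ptch1 was at 29.6 to 33.6 CPM and Bmp4 at 43.8 to 51.8 CPM. The labels of that set name activated p53, against its titles, and Mdm2 was at 178 to 189 CPM there. The zinc finger gene Zfp819 fell 5.95-fold.

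**Figure D3:**
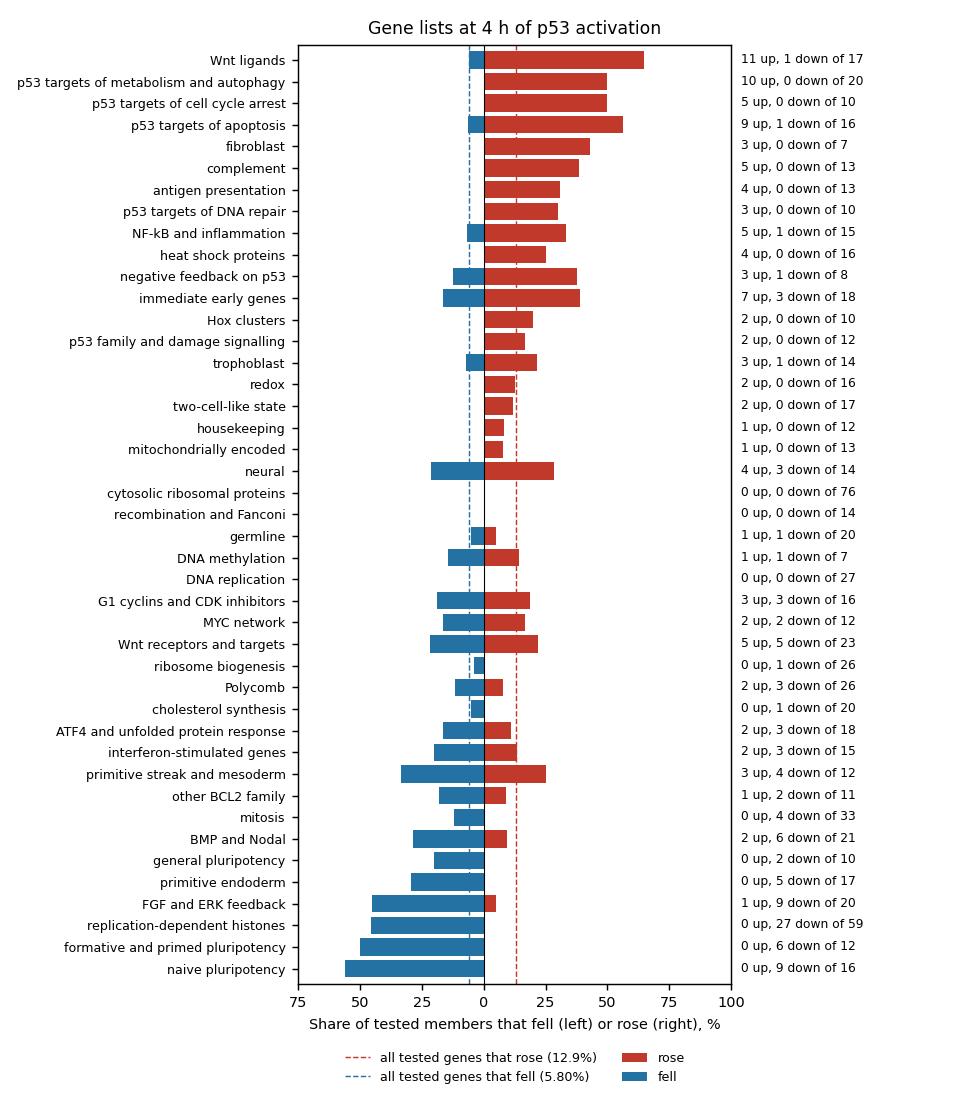
Share of the tested members of each of 43 gene lists that rose (red, right) or fell (blue, left), in percent, with counts beside each bar. Dashed lines mark the shares over all tested genes, 12.9% and 5.80%; Wnt ligands and the p53 target lists extend far to the right, naive and formative pluripotency genes and histones far to the left.

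Growth control genes changed in opposite directions within small families. Of 12 genes of the MYC network, 2 rose and 2 fell. Mycn, the main MYC gene of early embryos, was at 101, 110.0 and 96.6 CPM at 0 h and at 17.6, 19.2 and 16.9 CPM at 4 h. Max, the shared partner, fell 1.76-fold, and the antagonists Mxd1 and Mxd4 rose 3.89-fold and 3.0-fold. Max was at −0.74 on the log2 scale under quantile normalization, inside the fold threshold. Of 16 G1 cyclins and CDK inhibitors, 3 rose and 3 fell. The inhibitor gene Cdkn2b rose 7.37-fold, whereas Cdkn1b, which encodes p27, fell 2.28-fold. Rb1 and Rbl2, which encode pocket proteins that bind E2F factors, rose 5.43-fold and 5.77-fold; Rb1 went from 8.57, 9.86 and 7.88 CPM to 45.0, 47.9 and 50 CPM.

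Few genes of the cell cycle machinery passed. Of 27 DNA replication genes none passed in either direction by limma at the fold threshold. With unadjusted p below 0.05 there were 3 higher and 16 lower. Over all 15772 tested genes, 4533 were higher and 4890 lower at the stricter adjusted p under 0.05. Mcm6, a subunit of the replicative helicase, was at 1049 ± 19.3 and 1033 ± 17.0 CPM (SD, n = 3). Of 33 mitosis genes, 4 fell, with a list median of −0.28 and 31 members below 0. Aurka, the spindle pole kinase, went from 215, 216 and 228 CPM to 108, 111 and 112 CPM. Plk1, Prc1 and Ect2 fell 1.91-fold, 1.82-fold and 1.79-fold; under quantile normalization Prc1 and Ect2 no longer passed.

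Replication-dependent histone genes, which are used in S phase and whose mRNAs lack a poly(A) tail, were lower throughout. The total RNA protocol does not select for such tails. In all 59 tested genes the libraries at 4 h lay below those at 0 h, a separation seen in 63.8% of all tested genes in either direction. The median log2 fold change was −1.32, with a range from −2.22 to −0.69. Their sum was 15228, 19224 and 13524 CPM at 0 h and 7918, 5852 and 6089 CPM at 4 h. The uninduced libraries differed among themselves, and the second was the highest. Both thresholds were passed by 27 of the 59, and none rose. The count was 57 with the spread estimated over all groups of the time course, 57 with adjusted p below 0.05 and no fold limit, 43 by limma without trend and robust, 15 without replicate 2 at 4 h, 16 without replicate 3 at 4 h and 17 without replicate 1 at 0 h. Linker histone genes fell most. H1f3 was at 867, 957 and 714 CPM at 0 h and at 202, 165 and 175 CPM at 4 h, H1f2 fell 4.24-fold and H1f4 4.04-fold. Histone genes are near-identical copies, and reads that matched several places were put at 1 of them at random, so a single member is less certain than the family.

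None of 76 cytosolic ribosomal protein genes passed, with log2 differences between −0.23 and 0.21. With unadjusted p below 0.05 by limma there were 18 higher and 7 lower. Over all 15772 tested genes, 4533 were higher and 4890 lower at the stricter adjusted p under 0.05. Rpl4 was at 2979 ± 33.8 and 3160.3 ± 27.7 CPM (SD, n = 3). Of 26 ribosome biogenesis genes only Rrs1 fell, 1.83-fold. All 13 mitochondrially encoded genes had positive differences, with a median of 0.38, but mt-Nd6 alone passed, rising from 41.5 ± 4.66 to 73.4 ± 5.02 CPM (SD, n = 3). mt-Nd6 is the protein-coding gene on the other strand of that genome, and the counting did not use strand, so reads from the strand opposite cannot be told apart from its own.

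Stress pathways other than that of p53 changed in single members. Of 16 heat shock genes 4 rose. Hspa1a went from 7.78, 9.71 and 8.58 CPM to 41.1, 34.7 and 31.4 CPM, Hspa2 rose 3.92-fold and Hspa1b 2.74-fold; Hspa1a and Hspa1b are near-identical and share reads. Dnajb1 rose 1.69-fold, with a log2 fold change of 0.76 that was 0.71 after median centring. In the list of ATF4 and the unfolded protein response, 2 of 18 rose and 3 fell. Atf4 itself fell 2.13-fold and Xbp1, the factor of the endoplasmic reticulum response, fell 3.01-fold, while the pseudokinase gene Trib3 rose 2.48-fold and Atf5 2.21-fold.

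Immediate early genes, which respond to signals within minutes, were raised or lowered in 10 of 18 cases, 7 up and 3 down. Fos was at 1.89, 2.55 and 2.92 CPM at 0 h and at 27.2, 27.1 and 23.3 CPM at 4 h. Fosl1 rose 21.7-fold from 0.150 ± 0.174 CPM and Ier5 4.58-fold. Klf6 fell 3.40-fold.

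In antigen presentation, 4 of 13 rose and none fell. Tap1, a subunit of the peptide transporter, was at 5.53, 4.56 and 5.02 CPM at 0 h and at 64.3, 61.0 and 55.8 CPM at 4 h. Nlrc5, the transactivator of MHC class I genes, rose 6.83-fold and the immunoproteasome gene Psmb9 3.31-fold. The class I genes H2-K1 and B2m, named after their values were seen, both had a log2 difference of 0.27 and did not pass. Complement genes rose in 5 of 13 cases. C4b went from 1.46 ± 0.0618 to 16.9 ± 1.74 CPM (SD, n = 3), and C1rb rose 12.0-fold, C1ra 4.17-fold and C1s2 2.43-fold; C1ra and C1rb are close copies. In the NF-kB and inflammation list, 5 of 15 rose and 1 fell. The chemokine gene Cxcl10 rose 15.5-fold, to 7.53, 7.13 and 5.14 CPM, Nfkb2 rose 1.92-fold, Tnfaip2 3.65-fold, and Birc3, an inhibitor of apoptosis, fell 2.54-fold. Tnfaip2 was at the p threshold and did not pass under quantile normalization (log2 difference 0.77). Of 15 interferon-stimulated genes, 2 rose and 3 fell. Usp18 rose 6.41-fold, but Irf1 and Irf9, factors of the same response, fell 2.25-fold and 2.27-fold.

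Lineage regulators moved in both directions. Of 17 primitive endoderm genes, 5 fell and none rose, among them Sox17, from 5.85 ± 0.127 to 1.37 ± 0.313 CPM, Gata4, from 10.3 ± 0.945 to 4.13 ± 0.839 CPM (SD, n = 3), Foxa2 and Sox7. In the other set of tagged cells, titled untreated but labelled as p53-activated, Sox17, Gata4, Foxa2 and Sox7 had means of 62.5, 109.9, 27.3 and 23.2 CPM. Their levels thus differed between that set and the 0 h libraries, which was not tested. Of 14 trophoblast genes, 3 rose, Gcm1 11.3-fold, Krt7 5.17-fold and Dlx3 7.89-fold, and Tead4 fell 1.91-fold. In the primitive streak and mesoderm list, 3 of 12 rose and 4 fell. Mesp2, a somite factor, went from 3.14, 3.34 and 2.86 CPM to 14.8, 14.5 and 13.5 CPM, Mesp1 rose 11.0-fold and Lhx1 8.89-fold, whereas Evx1 fell 9.22-fold to 0.125 ± 0.0595 CPM (SD, n = 3). Of 14 neural genes, 4 rose and 3 fell, and the Brn3 family of sensory neuron factors was divided. Pou4f3 was at 1.30, 1.08 and 0.817 CPM at 0 h and at 37.1, 32.2 and 32.7 CPM at 4 h. Pou4f1 rose 6.18-fold, and Pou4f2 fell from 18, 17.7 and 18 CPM to 3.28, 3.10 and 2.40 CPM. Neurod1 rose 7.74-fold.

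Chromatin regulators and repeat-linked states changed at few places. Of 7 DNA methylation genes, Tet3 rose 3.64-fold and Tet2, a related enzyme that oxidizes methylated cytosine, fell 2.46-fold, from 278, 285 and 289 CPM to 112, 115 and 119 CPM. Of 26 Polycomb genes, 2 rose and 3 fell, where 12.9% of all tested genes rose and 5.80% fell. Epop, a partner of PRC2, fell 2.20-fold and Phf19 2.17-fold, while Phf1 rose 2.04-fold and no longer passed under quantile normalization. Of 10 tested Hox genes, 2 rose, Hoxc13 6.27-fold and Hoxb9 2.34-fold. Among 17 genes of the two-cell-like state, Duxf3, the Dux factor that starts it, rose from 0.498, 0.491 and 0.642 CPM to 8.11, 8.68 and 7.76 CPM and Sp110 2.61-fold. The other 15, Zscan4 genes among them, did not pass. Duxf3 lies in a repeat array, so its reads were in part placed at random. Of 20 germline genes, Tdrd9 rose 2.19-fold and Prdm1 fell 2.19-fold. Sp110, Hoxb9 and Tdrd9 did not pass under quantile normalization, with log2 differences of 0.71, 0.57 and 0.48.

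Rising genes often had a rising neighbour. Of 2022 rising genes with a place in GENCODE M21 (GRCm38), 33.9% had a rising gene as the nearest tested gene on one side or the other, against 24.0% of all 15522 placed genes. For falling genes the shares were 21.1% and 10.8%. The longest run of rising neighbours held 6 genes at chr17:32390659-32676914, namely Rasal3 and 5 Cyp4f genes of the fatty acid hydroxylase family. Their log2 fold changes were 3.07 for Cyp4f39, 2.42 for Cyp4f17, 1.16 for Cyp4f16, 1.05 for Cyp4f37, 0.97 for Cyp4f40 and 1.29 for Rasal3. These genes were named after their values were seen, and Cyp4f copies can share reads. No test of the shares was made, since neighbouring genes are not independent.

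Falling genes had shorter genomic spans at the median than all tested genes, a difference that was not tested. The median genomic span was 22991 bp for rising genes, 18129 bp for falling genes and 23616 bp for all tested genes. The share that rose was 13.3% in the shortest of 10 equal bins of genes and 11.3% in the longest, while the share that fell was 7.4% and 4.70%, with its lowest value of 3.74% in the ninth bin. By the longest annotated transcript the medians were 3436, 3400 and 3313 bp.

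The other time points place 4 h within the response. The 4 h libraries enter each of these comparisons, so the values stand side by side and are not independent. The means of Cdkn1a at 2, 4, 8 and 12 h were 72.1, 75.9, 61.4 and 73.2 CPM, with log2 differences of 0.08 from 2 to 4 h and −0.31 from 4 to 8 h, neither past the thresholds. Plk2 was at 488, 597, 597 and 779 CPM at those times. Mdm2 rose further from 2 to 4 h (0.78) and had a difference of −0.03 from 4 to 8 h. Others were still climbing: Nlrc5 had a log2 fold change of 2.35 from 2 to 4 h and 2.58 from 4 to 8 h, Wnt3 of 2.66 and 2.12 and Duxf3 of 2.24 and 2.58. Sesn2 had its highest mean at 4 h, at 244 CPM, and fell to 130.3 CPM at 8 h (log2 fold change −0.91). Zfp42 fell in both steps (−1.32 and −2.23), as did Mycn (−1.43 and −2.67). At 4, 8 and 12 h Id3 had means of 8.20, 5.65 and 27.5 CPM, and Axin2 of 5.30, 7.61 and 20.3 CPM. Trp53 mRNA, which did not pass at 4 h, fell by 0.91 on the log2 scale from 4 to 8 h. The list of 12 housekeeping genes summed to 13981, 14576 and 14202 CPM at 4 h and to 10919, 10864 and 11542 CPM at 8 h. Falls from 4 to 8 h are to be read beside this, and no other scaling was tried for that step.

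**Figure D4:**
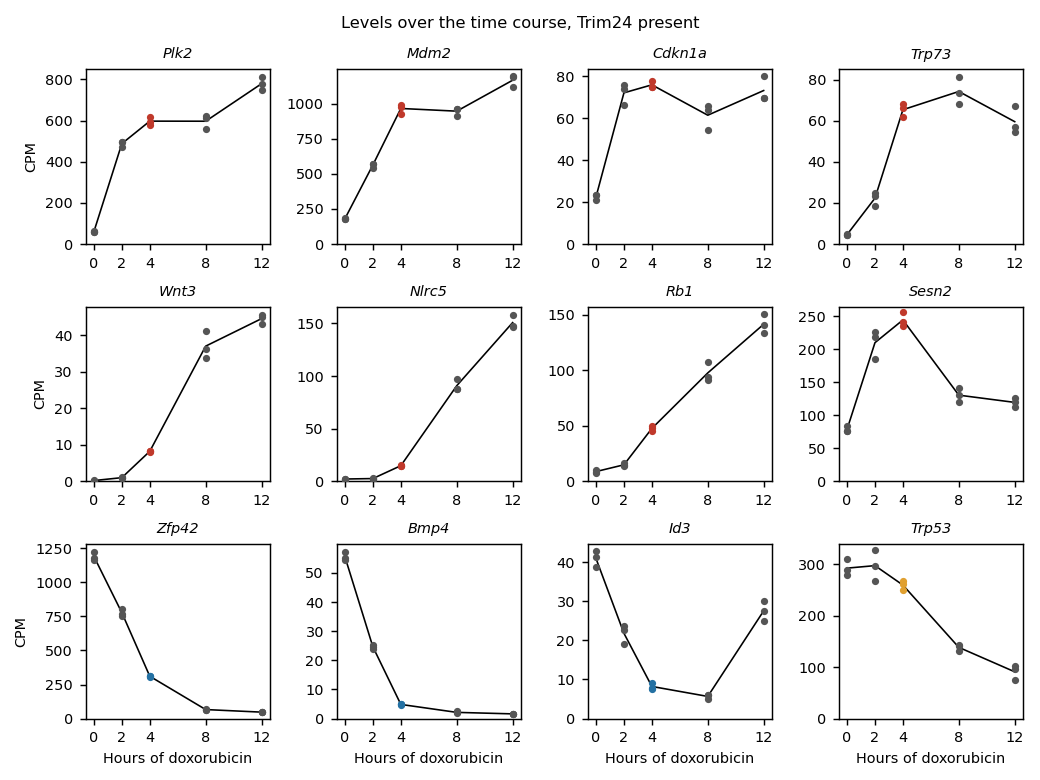
CPM of 12 genes against hours of doxorubicin, with 3 libraries (points) and their mean (line) at each time; libraries at 4 h are coloured red (rose against 0 h), blue (fell) or yellow (did not pass both thresholds). Cdkn1a has means of 72.1 and 75.9 CPM at 2 and 4 h, Plk2 goes from 488 CPM at 2 h to 779 CPM at 12 h, Wnt3 and Nlrc5 are at 4 h far below their levels at 8 h, Sesn2 has its highest mean at 4 h, and Id3 reaches 27.5 CPM at 12 h.

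A second set of libraries came from tagged cells with the same 4 h treatment and no degrader, deposited with the experiment on the RING domain of Trim24, and is set here beside the 4 h libraries. In its 4 libraries Mdm2 was at 862 to 909.9 CPM, Plk2 at 478 to 502, Trp73 at 42.3 to 48.4, Cdkn1a at 44.5 to 50.3, Bmp4 at 4.55 to 5.38 and Zfp42 at 292 to 327 CPM. Against the 4 h libraries of the time course, Mdm2, Plk2, Trp73 and Cdkn1a lay lower and Bmp4 and Zfp42 overlapped. Sbsn was at 4.08 to 5.20 CPM, where the time course had 16.5, 16.3 and 17.3 CPM. Levels set across tables were not tested.

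Wild-type mES cells without the tag were activated in a separate experiment that shares no library with this one, with 2 activated libraries, 4 h by the study's methods, and 2 untreated ones. There 10.3% of 16448 tested genes changed, 7.99% rising (1315) and 2.27% falling (373). Of the 2039 genes that rose in the tagged line, 57.9% also rose in wild-type cells (1180), which is 89.7% of the wild-type list. Of the 915 that fell, 34.2% also fell (313), which is 83.9% of the wild-type list, and no gene rose in one line and fell in the other. Without the first activated wild-type library the wild-type lists shrank to 460 and 216 genes, of which 456 and 170 were shared. The first and second activated wild-type libraries had reads for 18929 and 19688 genes and olfactory receptor sums of 132 and 217 CPM, against 133 and 91.7 CPM in the untreated ones. Across the 15645 genes tested in both, log2 fold changes had a Pearson r of 0.90, a value across genes, which are not replicates.

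The size of the change in the 2 lines was set side by side, and the difference between lines was not tested. Genes chosen for rising in the tagged line had a median log2 fold change of 1.27 in the tagged line and 0.84 in wild-type cells over the same 2017 genes, and those chosen for falling there −1.0 and −0.62 over 915. The choice favours larger values in the tagged line. Genes chosen instead for rising in wild-type cells had medians of 1.56 in the tagged line and 1.10 in wild-type cells over 1288 genes, and those chosen for falling there −1.20 and −0.98 over 373. The sign in wild-type cells was positive for 2006 of the 2017 and negative for 896 of the 915, while 46.0% of all 15645 genes were positive there. Nlrc5 had 2.60 and 1.12, Ptch1 −2.41 and −0.96, and Fas 3.89 and 2.09. Genes near equality included Btg2, with 2.56 and 2.64, Btg1, with 1.85 and 1.87, and Lpin1, with 2.10 and 1.99. Cdkn1a had 1.74 and 2.16. Trim24 had −0.80 and −0.43, the latter below the threshold, from 321 to 237 CPM. Of the histone genes, 45 of 59 fell in wild-type cells with a median of −1.74, against 27 of 59 and −1.32 here.

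**Figure D5:**
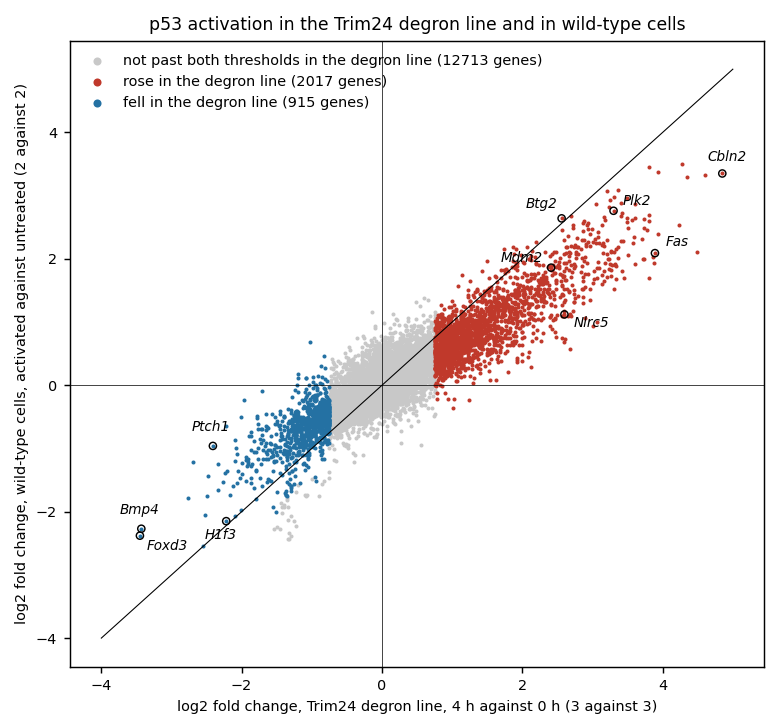
Log2 fold change on activation in wild-type cells (y axis, 2 against 2 libraries) against the tagged line at 4 h (x axis, 3 against 3) for the 15645 genes tested in both; colours mark the call in the tagged line and the diagonal marks equal change. Most red and blue points keep their sign, with medians of 0.84 and −0.62 on the y axis.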

How the data were processed

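RNA was measured as stranded total RNA libraries. The deposited values are log2 CPM, which the authors made with STAR on mm10 (reads matching up to 20 places kept, 1 place at random), featureCounts at default settings over GENCODE M25 protein-coding genes, so without strand, and edgeR's TMM scaling with a prior count of 8. Base calls came from bcl2fastq 2.17 or 2.20, per the labels.

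Because the values are log2, the study's count test was not used here. limma 3.58.1 (R 4.3.3; lmFit, eBayes with trend and robust) compared the 3 activated and 3 uninduced libraries, with Benjamini-Hochberg adjustment over 15772 genes that lay 0.5 above the floor of −1.48 in at least 3 libraries. A gene changed where adjusted p was below 0.01 and the log2 difference was 0.75 or more in size. The fit was tested on simulated data. Whole reads were recovered from the deposited log2 values (100% within 0.01 of a whole read) and gave CPM, read numbers and the limma-voom alternative. Intervals are exact, at 95%, and cover counting error only. Library depth was 17704232 to 21852262 reads. Replicates differed by more than sampling noise (chi-square per degree of freedom 2.078 or more). 0 columns lacked a sample.

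Named genes were Trp53, Trim24, Mdm2 and Cdkn1a, the 15 largest rises and 10 largest falls at 10 CPM or more whose groups did not overlap, up to 4 changed members of each list (or the highest member), up to 6 rising genes with 3 or fewer reads at 0 h and up to 6 with a p53 motif. Other genes were named after their values were seen. A few genes the rule names are not reported here. The members and lists were chosen with earlier results of these data known. Gene positions came from GENCODE M21 (GRCm38) and promoter windows from RefSeq (GRCm38.p6).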

Additional observations from a re-analysis of the deposited data

How the results depend on the processing

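Leaving out 1 of the 6 libraries gave 1969 to 2067 rising and 884 to 939 falling genes. Quantile normalization gave 1570 and 1366, median centring 1906 and 1078, and limma-voom on recovered reads 2156 and 970. At an adjusted p under 0.05 (limma, Benjamini-Hochberg) with no minimum fold change, 4533 genes rose and 4890 fell, and in wild-type cells 2971 and 2956. In wild-type cells quantile normalization gave 569 falling genes, and leaving out 1 library gave 460 to 1143 rising and 216 to 396 falling genes, the lowest without the first activated library. Counts from 2 to 4 h (1216 and 334) and from 4 to 8 h (2747 and 1272) stayed within 1.5 times these values without each replicate, with the replicate block and by limma-voom.

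Of 155 named genes, quantile normalization took the call from 16, Tap2, Snai2 and Col1a2 among them, median centring from 4 and limma without trend and robust from 5, Hrk and Sp110 among them. Col1a2 lost its call without replicate 1, 2 or 3 at 4 h and without replicate 2 or 3 at 0 h. Snai2 lost it without replicate 1 or 2 at 4 h or replicate 1 at 0 h, Hoxb9 and Dnajb1 without replicate 1 of either time, and Rrm2b without replicate 2 of either time. None of the 155 changed direction under any alternative.

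The replicate numbers do not pair the libraries: deviations of same-numbered libraries correlated at −0.079, −0.116 and 0.028. With the replicate number as a block, 2037 genes rose and 906 fell, and no named gene changed its call. The blocked fit gave 1286 and 386 genes in wild-type cells. Depth limits the genes under 1 CPM, where single reads move a fold change.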
